A study of Mus musculus with 18 samples.

Results

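Cluster 9 was a cluster of isthmus cells of the mouse stomach corpus. The isthmus is the zone of the gastric gland where progenitor cells divide. Its members were the cells that the deposited annotation of the second dataset assigned to cluster 9, and they numbered 218 of 3993 annotated cells in that dataset, of 1285 cells in the 5 isthmus clusters and of 4484 cells in the whole series. The cells came from wild-type male C57BL/6J mice of 10 weeks. Corpus tissue of 3 mice was combined in pool K and tissue of 3 other mice in pool T, by different operators, and live nucleated cells were sorted into 6 plates of 384 wells per pool for Quartz-Seq2, which reads poly(A) RNA with a molecular identifier (UMI) on each molecule. No mouse carried a transgene or was treated, so every comparison was between clusters of the same animals or between the pools. Pool K held 90 cells of cluster 9 and pool T held 128. They were compared with the other isthmus clusters 3, 5, 6 and 11 (339, 279, 270 and 179 cells) and with cluster 4 (291 cells), annotated as the precursors of pit cells, which line the gastric pit and secrete mucus. The mice of a pool were not marked in the data, so the spread between pools was the only spread between animals, and the cells of a pool were not counted as replicates.

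A dividing cell copies its DNA in S phase, prepares the spindle in G2 and separates its chromosomes in mitosis. Transcripts of mitotic genes rise through G2 under the MuvB, B-MYB and FOXM1 complexes, which act at promoter elements named CHR (cell cycle genes homology region) and CCAAT boxes. Transcription largely stops while chromosomes are condensed and resumes as the daughter cells enter G1, and many mitotic proteins are degraded at that time by the anaphase-promoting complex. In the corpus, isthmus progenitors are held to give rise to pit cells above and to neck and parietal cells below. Whether chief cells arise from neck cells or renew themselves is debated.

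The marker genes given for cluster 9 were Stmn1, which encodes the microtubule-destabilising protein stathmin and marks dividing isthmus cells, and Muc5ac, the secreted mucin of pit cells. Levels are the summed UMIs of a gene over all cells of a cluster in a pool, per 1000000 UMIs of the TMM-scaled library total (CPM), and are given for pool K first and pool T second. The summed UMIs of cluster 9 were 3194447 and 4364417. Stmn1 was at 50.1 and 46.2 CPM in cluster 9. It was higher in clusters 5 (74.7 and 69.5) and 6 (95.0 and 91.3), lower in cluster 3 (27.5 and 29.0) and lowest in clusters 11 (10.7 and 12.5) and 4 (6.34 and 9.82), so cluster 9 stood in the middle of this order, and no neighbours in the order overlapped over the pools. Muc5ac was at 1984 and 1809 CPM, within the range of the other isthmus clusters (1221 to 2194 CPM over clusters 3, 5, 6 and 11) and below cluster 4 (3847 and 4342 CPM). Its median per cell, 12.7 UMIs per 10000, was above that of clusters 3, 5, 6 and 11 (1.66, 6.37, 3.66 and 3.18). In cluster 4 this median was 33.0. At least 1 UMI of Stmn1 was found in 80.3% of the cells of cluster 9 and in 43.6% after each cell was thinned to 10000 UMIs. In parietal cluster 1, which should lack it, the shares were 26.2% and 8.08%, with median depths of 31356 UMIs per cell in cluster 9 and 45390.5 in cluster 1. Both genes were found together in 71.6% of the cells (32.6% thinned), against 16.2% (1.97% thinned) in cluster 1. Muc5ac alone was found in 87.6% of the cells (78.4% thinned), against 60.5% (21.6% thinned) in cluster 1. Both markers were thus present, and the summed levels of both were as high or higher in other clusters.

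Endocrine, leukocyte and stromal genes were at low levels, only 1 of 5 tuft cell genes could be tested, and a single well held most UMIs of the parietal pump genes. The 4 tested endocrine genes summed to 41.6 and 56.9 CPM, with ghrelin (Ghrl) the most abundant. Avil, the tested tuft cell gene, was at 36.5 and 25.4 CPM. It was called higher than the mean of clusters 3, 5, 6 and 11 (log2 difference 0.765), cluster 3 (1.28) and cluster 6 (1.31). Against clusters 5, 11 and 4 it was not called. None of 6 leukocyte genes passed the filter on low counts, and Dcn, the stromal gene that passed it, was at 0.283 and 0 CPM. The chief cell genes summed to 31700 and 31400 CPM, with Pgc, a pepsinogen gene that neck cells express too, the most abundant. Atp4a, the alpha subunit of the parietal proton pump, was at 615.6 CPM in pool K but at 84.6 CPM in pool T. In pool K, 1 well of plate 3 held 1838 of the 2579 Atp4a UMIs of the whole cluster, and no other cell held more than 27. The same well held 1021 of 1592 UMIs of Atp4b, the pump's beta subunit, had 134933 UMIs and 9566 detected genes, and 13.6% of its UMIs were mitochondrial, against a median of 4.28% in the cluster. Without it Atp4a stood at 97.9 CPM in pool K. The 12 parietal genes of the list summed to 1490 and 595 CPM in cluster 9 with the well included. Of these 12 genes, 7 were higher and 2 lower than in cluster 6 (backgrounds 15.0% and 17.1%, the shares of all tested genes called in each direction), and 5 were higher and 2 lower than in cluster 4 (backgrounds 8.75% and 9.19%), by edgeR's quasi-likelihood test. Without the well, 4 were higher and 3 lower than in cluster 6, and 1 was higher and 3 lower than in cluster 4. None was higher than in cluster 5 (background 3.44%), and 2 were lower with the well and 5 without it (background 7.7%). Counts below include this well unless stated. Among 464 single-gene values computed without it, 5 that were called with it changed direction, 3 lost the call and 1 gained it. Plates of both pools used the same set of 384 well barcodes, so 40 of the 170 well barcodes of cluster 9 occurred on 2 or more plates and at most on 4; cells were told apart by plate and barcode together.

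The annotation called 196 of the 218 cells G2M, 19 G1 and 3 S. These calls came from 2 scores per cell, which the authors computed from S-phase and G2/M gene lists, and a cell is called G2M whenever the G2/M score is the higher and above 0. The G2/M score of cluster 9 had a median of 0.236 and ran from −0.113 to 0.694. In cluster 5, where all 279 cells were called G2M, the median was 0.818, no cell of cluster 9 reached that median and no cell of cluster 5 fell below the median of cluster 9. The distance to 0 was short for many cells, since 58 lay within 0.1 of 0 and 22 were below 0. The S score of cluster 9 was low (median −0.0662), as in clusters 11 (−0.0842) and 4 (−0.0883) and unlike clusters 3 (0.372) and 6 (0.542). The same phase name therefore covered largely separate score ranges in clusters 5 and 9, where 4 cells of cluster 9 lay above the 10% point of cluster 5. The cells of cluster 9 had a median of 31356 UMIs, close to clusters 11 (31337) and 4 (32262) and 62.6% of that in cluster 5 (50083), with a range of 11995 to 162767.

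**Figure D1:**
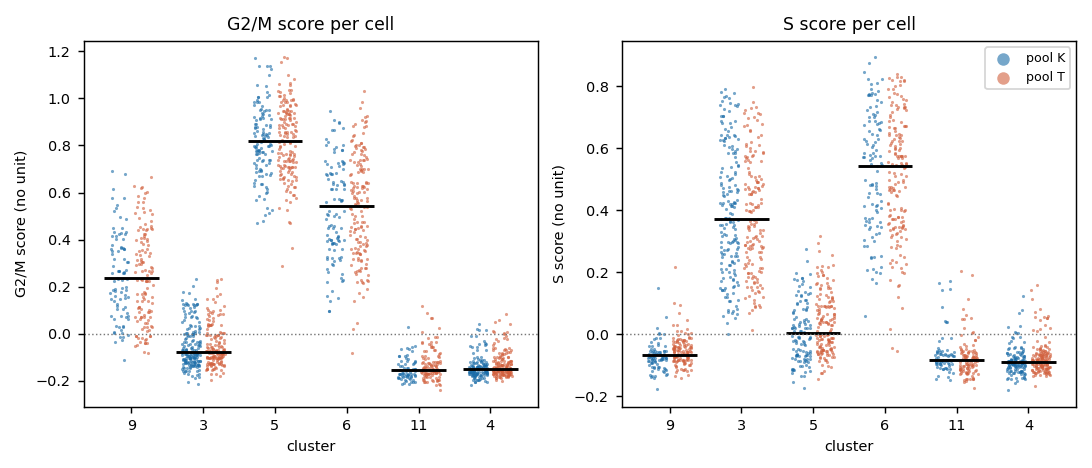
G2/M score (left) and S score (right) of each cell by cluster, points coloured by pool (blue, K; orange, T) and shifted sideways at random, black lines the median over both pools and the dotted line a score of 0. The median G2/M score of cluster 9 lies between 0 and that of cluster 5 (0.236 and 0.818), with 22 cells below 0, and its S score is low.

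Genes were compared on UMIs summed per cluster and pool with edgeR's quasi-likelihood test over 12922 genes, and a gene was called at a Benjamini-Hochberg adjusted p below 0.05. The clusters had been made from the same counts, so these calls describe how the clusters differed and are no independent test. Cluster 9 differed from cluster 5 at 1440 genes (11.1%), of which 445 (3.44%) were higher and 995 (7.7%) lower in cluster 9. On sums per plate in place of pools, which counts plates of the same mice as replicates and left 9940 genes to test, the count was 2635. After thinning every cell to 10000 UMIs, with 10909 genes tested, it was 626. On pool sums, more genes were called against cluster 11 (2468, 19.1%), the pre-pit cluster 4 (2318, 17.9%), cluster 3 (3740, 28.9%) and cluster 6 (4153, 32.1%). Against the mean of the 4 isthmus clusters 2785 (21.6%) were called, 1478 (11.4%) higher and 1307 (10.1%) lower. By this count cluster 5 was the cluster least unlike cluster 9, although the groups compared were of unequal size.

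Mitotic genes were lower than in cluster 5, and by very unequal amounts. Of 82 genes in 6 lists of mitotic functions, 77 were called lower in cluster 9 than in cluster 5 (background 7.7%) and 1 was higher, with a median log2 difference of −1.62 against 0 over all genes. Genes of each function were lower, with 13 of 15 mitotic cyclins and kinases, 11 of 11 condensation genes, 13 of 15 centromere and kinetochore genes, 10 of 11 genes of the spindle checkpoint and the anaphase-promoting complex, 18 of 18 spindle genes and 12 of 12 genes of cytokinesis and the passenger complex called. Against cluster 11, 77 of the 82 were higher (background 10.5%) with a median of 3.47, and against pre-pit cluster 4, 78 were higher (background 8.75%) with a median of 3.76, while the medians of all genes in these comparisons were −0.01 and −0.04. The clusters and the scores were made from these counts, so the direction is a description. Among the 79 genes with at least 20 CPM in cluster 5, the level in cluster 9 had a median of 32.3% of that in cluster 5 and ran from 8.07% to 134%. The order of the genes was nearly the same in the pools (Spearman's rank correlation 0.952 across genes, which are not independent replicates). In both pools 12 genes stayed above 50% and 13 lay under 20%, and both limits were chosen after the values had been seen.

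**Figure D2:**
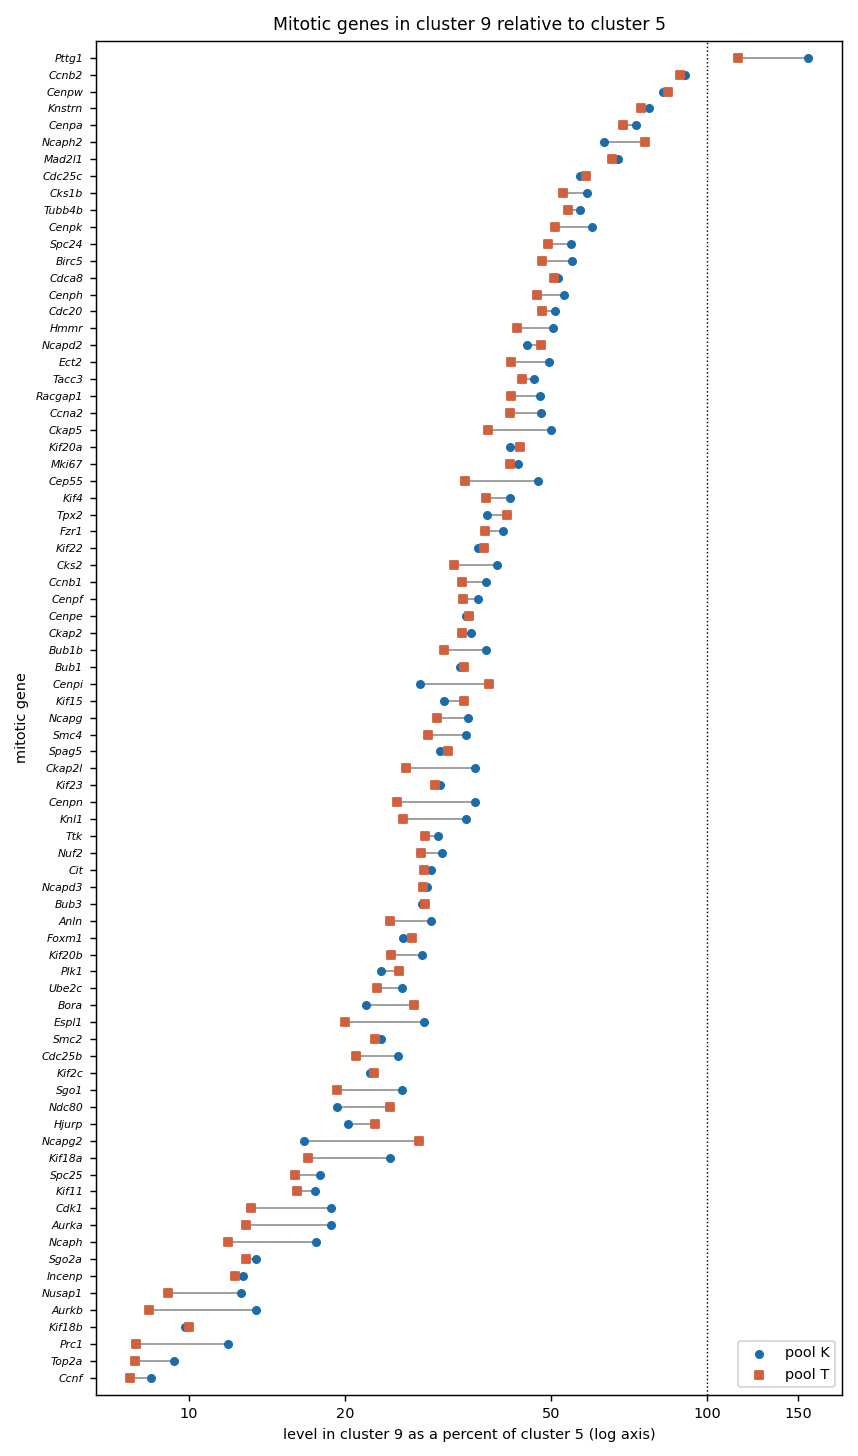
Level of each of 79 mitotic genes in cluster 9 as a percent of its level in cluster 5, by pool (circles, K; squares, T; grey lines join them; log axis; dotted line, 100%). The genes spread from 8.07% (Ccnf) to 134% (Pttg1) around a median of 32.3%, and the pools lie close together for most genes.

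The 12 genes above 50% in both pools came from all 6 lists. The centromere and kinetochore list held 4 of them among its 15 genes, and its median, 34.6%, was close to that of all 79 genes. Pttg1, which encodes securin, the inhibitor of the protease that separates sister chromatids, was at 63.2 and 49.6 CPM in cluster 9, above both pools of every other cluster compared (24.2 to 44.5 CPM), and was the mitotic gene called higher than in cluster 5 (log2 difference 0.42 ± 0.12, SE). Ccnb2, the mitotic cyclin B2, was at 339.4 and 343.9 CPM against 374.4 and 386.8 in cluster 5 (−0.16 ± 0.22), a difference within its error, and against 36.1 and 59.8 in cluster 11. Cdkn3, a phosphatase that acts on cyclin-dependent kinases and is outside the mitotic lists, was at 117.3 and 121.8 CPM against 119.3 and 129.8 (−0.06 ± 0.19). Ccnb2 and Cdkn3 thus stood near their level in cluster 5. Cenpa, the histone H3 variant of centromeres, was at 370.3 and 353.3 CPM against 508.2 and 512.7 (−0.50 ± 0.20, not called), and Knstrn, a kinetochore and spindle protein, at 160.6 and 161.0 against 208.1 and 216.2 (−0.40 ± 0.13, called). Cenpw, Ncaph2, Mad2l1, Cdc25c, Cks1b, Cenpk, Tubb4b and Cdca8 were the other 8 listed genes above 50% in both pools. All of those named here except Pttg1 were below cluster 5 in both pools.

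The 13 genes under 20% were spread over 5 of the 6 lists, and members of the same complex differed. Top2a, the topoisomerase that untangles sister DNA, was at 53.8 and 46.5 CPM against 574.3 and 588.8 in cluster 5 (−3.54 ± 0.19), 8.6% of the level there. Cdk1, the kinase that drives entry into mitosis, was at 90.4 and 69.4 CPM against 480.3 and 525.0 (−2.67 ± 0.13), and thus far lower than in cluster 5 although its partner Ccnb2 was not. Ccnf, which encodes cyclin F, a subunit of a ubiquitin ligase, was at 7.37 and 6.67 CPM against 87.0 and 86.6 (−3.63 ± 0.25). Prc1, which bundles microtubules of the central spindle, the passenger complex members Aurkb and Incenp, the spindle proteins Nusap1 and Kif18b, and Sgo2a, Ncaph, Aurka, Kif11 and Spc25 were the other 10 genes under 20% in both pools. The passenger complex was divided, since its members Birc5 and Cdca8 stood at 51.4% and 51.1%. Among all genes, the largest falls from cluster 5 were Cdca2 (6.52 and 4.17 CPM, −3.87 ± 0.22), a phosphatase regulator on mitotic chromosomes, and Mxd3 (2.83 and 4.17 CPM, −3.65 ± 0.27), a transcription factor of the MYC network. The groups did not overlap for any of the genes with values in this paragraph.

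**Figure D3:**
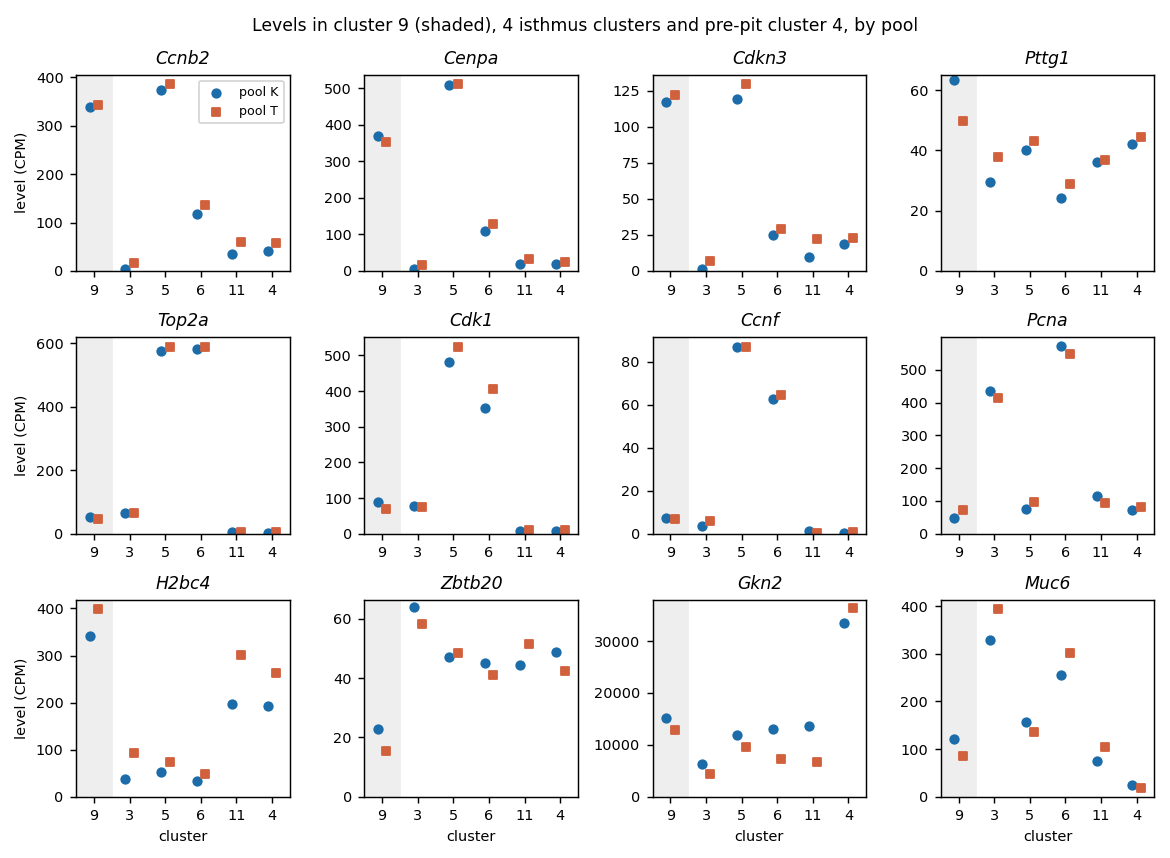
Levels of 12 genes in cluster 9 (shaded), clusters 3, 5, 6 and 11 and pre-pit cluster 4, each point the summed cells of a cluster in a pool, in CPM on a linear axis from 0. Ccnb2 and Cdkn3 in cluster 9 are near cluster 5, Cenpa is lower in both pools, Top2a, Cdk1 and Ccnf are far below it (53.8 and 46.5 CPM for Top2a against 574.3 and 588.8), and Zbtb20 is lower and H2bc4 higher than in the other clusters.

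The low levels were also unevenly spread over the cells of cluster 9. The 16 cells with more than 2 times the median number of UMIs held 17.2% of all UMIs of the cluster. They held 59.6% of its 413 Top2a UMIs, 57.2% of its Cdk1 UMIs, 60.3% of its Ccnf UMIs and 70.0% of its Prc1 UMIs, but only 13.5% of its Ccnb2, 18.3% of its Cenpa and 19.1% of its Pttg1 UMIs. The first 4 genes were therefore concentrated in a few cells of high total count, and the last 3 were spread in proportion to all UMIs. Without those 16 cells Top2a fell to 4.1% of the level in cluster 5, while Ccnb2 stood at 94.5%. After thinning to 10000 UMIs, Top2a was found in 19.7% of the cells of cluster 9 and in 88.2% of those of cluster 5, Ccnf in 2.29% and 58.4%, and Ccnb2 in 96.3% and 97.1%. Whether wells with 2 cells contributed was not tested, as no doublet caller was run on these sorted plates. Over the 12 plates Top2a ran from 14.8 to 104 UMIs per 1000000 and Ccnb2 from 314 to 432, without TMM scaling and so not on the scale of the pool levels.

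Promoters of genes above 50% and under 20% of the cluster 5 level are shown because mitotic genes share known promoter elements. RefSeq promoters (assembly GRCm38.p6, from 250 bases before to 50 bases after the annotated start of each gene, 5′ to 3′ on the strand of the gene) were searched on both strands for the CHR letters TTTGAA and TTCGAA and for CCAAT, which are in capitals (reverse complements TTCAAA and ATTGG included). Ccnb2 and Cenpa were among the genes above 50%, and Top2a, Cdk1 and Ccnf were among those under 20%.
Ccnb2, chr9:70421505-70421804, minus strand: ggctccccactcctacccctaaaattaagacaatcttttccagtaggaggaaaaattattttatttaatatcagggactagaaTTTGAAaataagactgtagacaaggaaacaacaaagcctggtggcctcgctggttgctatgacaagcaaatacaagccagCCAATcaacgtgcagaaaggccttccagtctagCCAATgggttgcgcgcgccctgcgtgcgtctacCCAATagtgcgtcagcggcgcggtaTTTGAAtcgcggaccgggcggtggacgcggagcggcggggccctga
Cenpa, chr5:30666636-30666935, plus strand: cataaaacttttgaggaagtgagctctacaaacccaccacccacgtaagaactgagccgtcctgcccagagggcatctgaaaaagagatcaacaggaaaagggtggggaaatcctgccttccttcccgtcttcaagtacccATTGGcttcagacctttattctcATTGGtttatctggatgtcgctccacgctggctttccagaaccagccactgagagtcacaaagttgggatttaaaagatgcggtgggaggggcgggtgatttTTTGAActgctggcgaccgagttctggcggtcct
Top2a, chr11:99024140-99024439, minus strand: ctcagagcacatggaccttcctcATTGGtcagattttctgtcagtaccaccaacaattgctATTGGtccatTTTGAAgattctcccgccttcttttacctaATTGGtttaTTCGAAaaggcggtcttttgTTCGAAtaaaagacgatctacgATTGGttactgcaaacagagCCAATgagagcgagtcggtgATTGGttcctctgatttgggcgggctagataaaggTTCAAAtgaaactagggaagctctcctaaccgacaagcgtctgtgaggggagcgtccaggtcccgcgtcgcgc
Cdk1, chr10:69352863-69353162, minus strand: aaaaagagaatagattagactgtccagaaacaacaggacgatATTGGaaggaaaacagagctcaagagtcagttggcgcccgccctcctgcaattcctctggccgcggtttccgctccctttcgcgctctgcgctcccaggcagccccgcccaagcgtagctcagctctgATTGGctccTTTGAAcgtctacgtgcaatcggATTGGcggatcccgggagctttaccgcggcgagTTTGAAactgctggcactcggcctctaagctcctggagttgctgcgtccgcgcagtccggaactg
Ccnf, chr17:24251360-24251659, minus strand: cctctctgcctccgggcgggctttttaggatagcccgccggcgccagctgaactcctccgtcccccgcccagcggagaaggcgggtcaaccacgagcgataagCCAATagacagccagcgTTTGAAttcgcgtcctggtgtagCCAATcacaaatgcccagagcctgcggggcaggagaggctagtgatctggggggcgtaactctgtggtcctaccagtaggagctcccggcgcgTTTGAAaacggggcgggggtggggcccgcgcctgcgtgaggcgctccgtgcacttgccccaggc
All 5 windows held at least 1 CHR and at least 2 CCAAT matches. They were chosen with their matches known, and the windows of Pttg1 and Knstrn, also above 50%, held 0 matches to either. Of the mitotic genes with at least 20 CPM in cluster 5, 69 of 79 had a promoter in the table searched, and 72.5% of these held a CHR, 71.0% a CCAAT and 59.4% both, against 19.4%, 37.9% and 7.7% of all 27025 promoters of that length. In the 9682 promoters of the genes tested for expression, these shares were 13.8%, 39.4% and 5.92%. Both elements were found in 54.5% of the 11 matched promoters of genes above 50% and in 72.7% of the 11 matched promoters of genes under 20%. These few promoters do not separate the groups by the letters searched, and a match is not evidence of a bound site.

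Genes of DNA replication were mostly lower than in clusters 3, 5 and 6. Of 34 genes of S phase and DNA replication, 33 were called lower in cluster 9 than the mean of the isthmus clusters (background 10.1%), with a median log2 difference of −1.58, and 25 were lower and 2 higher than in cluster 5 (backgrounds 7.7% and 3.44%). Pcna, the sliding clamp of DNA polymerase, was at 49.0 and 71.7 CPM against 436.8 and 413.8 in cluster 3 and 573.4 and 548.2 in cluster 6, and was nearer to clusters 5 (76.6 and 98.3), 11 (116.3 and 94.1) and 4 (71.8 and 81.3). Ccne1, the G1/S cyclin E1, was at 0.85 and 2.08 CPM against 36.6 and 48.1 in cluster 3. Against pre-pit cluster 4, 16 of the 34 were higher and 3 lower (backgrounds 8.75% and 9.19%, median 0.64), so most calls were higher there. Against cluster 11, 11 were higher and 7 lower (backgrounds 10.5% and 8.56%, median 0.33), so the calls went both ways. The D-type cyclins Ccnd1 (79.3 and 88.3 CPM) and Ccnd2 (148.2 and 148.1 CPM), which act in G1, were below pre-pit cluster 4 (124.2 and 138.2, and 263.6 and 267.7). Of 22 genes of G1 cyclins and CDK inhibitors, however, 7 were higher and 2 lower than in cluster 4 (backgrounds 8.75% and 9.19%, median 0.34), and 12 were lower and 2 higher than the isthmus mean (backgrounds 10.1% and 11.4%). Among the largest falls from that mean were Slfn9 (4.25 and 2.71 CPM against 104.9 and 109.8 in cluster 6 and 7.84 and 11.4 in cluster 5, −2.94 ± 0.28) and the DNA repair gene Brca1, with 3 and 6 UMIs in cluster 9. Sirpa, which encodes a receptor for CD47, and Mybl1, which encodes a relative of B-MYB, had 0 UMIs in both pools of cluster 9. With 3 UMIs per pool in place of 0, they were at least 4.29-fold and 2.73-fold lower than in cluster 6.

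A small number of genes set cluster 9 apart from all 5 other clusters. In each of the 5 comparisons 19 genes (0.147%) were called higher in cluster 9 and 53 (0.41%) lower. These counts depended on the processing. They were 39 and 76 with pool as a block, 86 and 122 on plate sums (9940 genes tested, with plates of the same mice counted as replicates), 6 and 16 after thinning every cell to 10000 UMIs, and 4 and 21 without pool K of cluster 9. Among the 19 was H1f3, a linker histone gene, at 12.8 and 14.4 CPM against 0.669 to 5.96 in the other 5 clusters. Prdm16os, an antisense-named gene next to Prdm16 on the opposite strand, was at 21.8 and 19.6 CPM against 4.01 to 12.3, while Prdm16 itself, which encodes a zinc finger transcription factor, was among the 53 lower genes (13.3 and 18.5 CPM against 30.3 to 48.0). Dynll1, a dynein light chain, was at 485.0 and 445.1 CPM against 237 to 370. The groups did not overlap for these genes. Lpl, which encodes lipoprotein lipase, was also among the 19 but rested on the well with parietal transcripts, since its level of 84.4 CPM in pool K fell to 7.31 without that well and stood at 9.17 in pool T. Without the well 17 genes were higher and 59 lower in all 5 comparisons.

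Other histone genes were high as well. H2bc4, a histone H2B gene, was at 340.8 and 399.5 CPM against 52.1 and 73.3 in cluster 5 (2.56 ± 0.29), and exceeded clusters 11 (197.2 and 301.3) and 4 (191.8 and 263.5) without being called there. Of 57 replication-dependent histone genes, 17 were tested. Of these, 11 were called higher than the isthmus mean and none lower (backgrounds 11.4% and 10.1%, median log2 difference 1.096), and 5 were higher and 1 lower than in cluster 5 (backgrounds 3.44% and 7.7%). Against cluster 6, 7 were higher and 1 lower (backgrounds 15.0% and 17.1%). Against cluster 11, 4 were higher and 0 lower (backgrounds 10.5% and 8.56%, median 0.56). Against cluster 4, 5 were higher and 0 lower (backgrounds 8.75% and 9.19%, median 0.90). Such histone transcripts mostly lack a poly(A) tail, so a method that reads poly(A) RNA sees only a part of them. Genes of cholesterol synthesis formed another group, chosen after the values had been seen. Of 19 tested, 15 were higher than the isthmus mean and none lower (backgrounds 11.4% and 10.1%, median 0.68), 4 were higher than in cluster 5 (background 3.44%) and 13 than in pre-pit cluster 4 (background 8.75%). Lss, lanosterol synthase, was at 90.1 and 55.4 CPM against 28.1 to 50.6 in the other 5 clusters, Mvd, a decarboxylase of the mevalonate pathway, at 64.9 and 51.7 against 16.4 to 42.2, and Cyp51, the lanosterol demethylase, at 182 and 169 against 73.2 to 127. All 3 were higher in both pools than in any of the 10 other sums.

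The 53 genes that were lower than in all 5 clusters were mostly long. Genomic spans, from the first to the last annotated base of a gene, were taken from GENCODE M39 on GRCm39, in which 97.7% of the tested genes were matched by symbol. The median span of the 53 was 197 kb and 36 of them exceeded 100 kb, against a median of 23.3 kb and 12.2% over all tested genes. Of the 19 higher genes, 1 exceeded 100 kb and the median span was 22.0 kb. Pde4d, a cAMP phosphodiesterase gene of 1506.016 kb at chr13:108586482-110092497 on the plus strand, was at 10.5 and 10.8 CPM against 17.8 to 48.1 in the other 5 clusters. Zbtb20, which encodes a zinc finger transcription factor and spans 766.873 kb at chr16:42696093-43462965 on the plus strand, was at 22.9 and 15.4 CPM against 41.2 to 63.9. Trio, a guanine nucleotide exchange factor of 295.293 kb, was at 6.52 and 7.71 against 14.9 to 19.8, and Foxp2, a forkhead factor, at 10.5 and 9.37 against 15.2 to 25.4. None of these 4 genes overlapped between cluster 9 and the other clusters. Short genes were among the 53 as well, such as Ubb, a polyubiquitin gene of 3.152 kb, and Slc25a1, the mitochondrial citrate carrier, of 3.171 kb.

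A lower level of long genes was also seen over all tested genes. Among 249 genes of more than 300 kb, 30.9% were called lower and 2.41% higher than the isthmus mean, with a median log2 difference of −0.40, against 6.64% lower and 11.3% higher among 3297 genes under 10 kb. Measured as the median difference from the mean of the other 5 clusters, these long genes stood at −0.335 in pool K and −0.333 in pool T for cluster 9 and between −0.113 and 0.159 for the other 5 clusters. Cluster 9 was the lowest in both pools. Against single clusters the median for these genes was −0.428 (cluster 5), −0.498 (cluster 3), −0.454 (cluster 6), −0.36 (cluster 11) and −0.24 (cluster 4). Among the 85 long genes with a mean of at least 20 CPM the medians for cluster 9 were smaller, −0.144 and −0.171. Thinning every cell to 10000 UMIs left the median against cluster 5 at −0.396, and leaving out the well with parietal transcripts gave −0.443. With no filter on low counts, which took in 483 genes over 300 kb, the median was 0 against cluster 4, −0.063 against cluster 11 and −0.211 against cluster 5. Whether reads in introns were counted is not given in the sources used here, so a part of nuclear unspliced RNA in these values was not tested. Malat1, an abundant nuclear RNA, was at 197 and 247 CPM in cluster 9 and at 253 to 476 in the other 5 clusters.

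**Figure D4:**
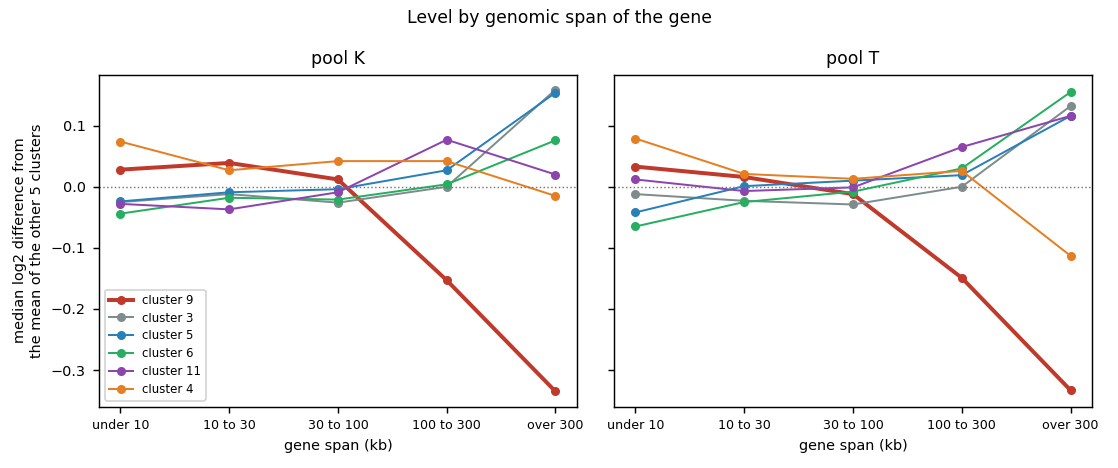
Median log2 difference of each cluster from the mean of the other 5 clusters, for genes grouped by genomic span in kb, by pool. Cluster 9 (thick red line) falls to −0.335 and −0.333 for genes over 300 kb, while the other clusters stay between −0.113 and 0.159.

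Pit cell genes were lower in cluster 9 than in pre-pit cluster 4. Of 22 such genes, 11 were called lower than in pre-pit cluster 4 (background 9.19%) and none higher, with a median log2 difference of −0.70, and none was called in either direction against cluster 5 (backgrounds 3.44% higher and 7.7% lower). Against cluster 3, 9 were higher and none lower (backgrounds 14.9% and 14.0%), and against cluster 11, 1 was higher and 6 lower (backgrounds 10.5% and 8.56%, median −0.07). Gkn2, a secreted gastrokine of pit cells, was at 15150 and 12900 CPM against 33500 and 36310 in cluster 4 (−1.32 ± 0.34) and 11900 and 9476 in cluster 5. Sctr, the secretin receptor, was at 36.6 and 22.1 CPM against 79.3 and 75.1 in cluster 4 (−1.43 ± 0.20). Clusters 9 and 4 did not overlap for either gene. Of 33 genes listed as the study's lineage transcription factors, 9 were higher and 3 lower than in cluster 4 (backgrounds 8.75% and 9.19%). That list also holds the mitotic gene Cenpa, so the count is not one of lineage factors alone. Muc6, the mucin of neck cells, went the other way, with 121.0 and 85.8 CPM against 24.9 and 17.6 in cluster 4 (2.28 ± 0.34) and 329.7 and 394.4 in cluster 3. Other neck cell genes did so only in part. The list of 12 had 5 higher and 0 lower than in cluster 4 (backgrounds 8.75% and 9.19%, median 0.24). Against the isthmus mean, 1 was higher and 2 lower (backgrounds 11.4% and 10.1%). Gkn3, also a neck cell gene, was found in 23.4% of the cells against 31.3% in cluster 4 (10.6% and 13.7% thinned). Genes above pre-pit cluster 4 included mitotic ones such as Cdc20, the activator of the anaphase-promoting complex (6.20 ± 0.21), Tpx2, a spindle assembly factor (5.74 ± 0.24), and Anln, which acts in cytokinesis (43.6 and 37.5 CPM in cluster 9). Bub1b, of the spindle checkpoint, was at 50.7 and 45.6 CPM in cluster 9 and had 1 UMI in each pool of cluster 4. Those below it included Irs1, an adaptor of the insulin receptor (1.98 and 2.29 CPM against 12.4 and 12.4, −2.51 ± 0.39), and Il6ra, the interleukin 6 receptor.

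Single cells of cluster 9 differed widely in pit cell transcripts. Gkn2 ranged from 0.608 to 675 UMIs per 10000, with 1.93 at the 10% point and 396 at the 90% point. Its median was 27.1, above clusters 3, 5, 6 and 11 (4.13, 8.15, 4.86 and 9.15) and below cluster 4 (353). Across the 218 cells, Gkn2 went with Gkn1 (Spearman's rank correlation 0.951), Tff1 (0.886) and Muc5ac (0.629) and against Muc6 (−0.688) and Pgc, which encodes a pepsinogen (−0.771). The cells share libraries and pools, and shares of a total are linked to each other, so these values are descriptions. After thinning, the value with Muc6 was −0.559. The 54 cells highest in Gkn2 had a median of 32.1 Muc5ac and 0 Muc6 UMIs per 10000, and the 54 lowest 0.676 and 1.71. Their medians were 3.54 and 3.92 for Ccnb2, 4.38 and 3.64 for Cenpa and 2.41 and 1.69 for Mki67, a marker of dividing cells, so transcripts of these cell cycle genes were present at both ends. The same relation of Gkn2 with Muc6 was present in clusters 5 (−0.699), 6 (−0.721), 3 (−0.59) and 11 (−0.593), and was weaker in cluster 4 (−0.389). The G2/M score of a cell went weakly with Gkn2 (0.337) and with total UMIs (0.301), and not with Stmn1 (0.046).

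The pools differed in stress-response genes of cluster 9, and the summed levels of these genes differed between the pools in other isthmus clusters too. The comparison of 6 plate sums of pool T with 6 of pool K set a single pool of 3 mice against another, so its errors and p-values cover the spread between plates and not between animals. It called 36 of 7680 genes (0.469%), 33 (0.43%) higher and 3 (0.0391%) lower in pool T, by edgeR's quasi-likelihood test with Benjamini-Hochberg adjustment. With no filter beyond 1 UMI, 163 of 18695 genes were called. Of 14 immediate early and heat shock genes that tissue dissociation is known to induce, 11 were higher in pool T (background 0.43%), with a median log2 difference of 1.09. Their summed pool level was 3990 CPM in pool K and 7720 CPM in pool T. It was also higher in pool T in cluster 3 (4710 and 7790 CPM), cluster 5 (5160 and 8700 CPM) and cluster 6 (5350 and 9890 CPM), but not in cluster 11 (15000 and 13200 CPM), and these differences between clusters were not tested. Plate levels were scaled by TMM among the 12 plate sums, so they are not on the scale of the pool levels. Jun was at 193.8 CPM in pool K and 542 in pool T (1.51 ± 0.13, adjusted p = 2.13e-07). Its lowest, median and highest plates were 149.3, 218 and 272 CPM in pool K and 455.6, 616 and 772.9 CPM in pool T, without overlap. Atf3, a stress-induced transcription factor, was at 119.6 and 383.7 CPM (1.65 ± 0.26), and its plates, 70.0 to 230.1 CPM in pool K and 193.3 to 799.2 in pool T, overlapped. The 3 lower genes were Scd2, a fatty acid desaturase (445.1 and 278.9 CPM, −0.74 ± 0.12), Insig1, a sensor of sterols (196.3 and 122.3 CPM, −0.73 ± 0.14), and Fdps, of the mevalonate pathway (109.1 and 71.0 CPM, −0.63 ± 0.12). The plates of the pools lay close but did not overlap for Scd2 (393.0 to 690.8 CPM in pool K, 277.5 to 391.1 in pool T), did not overlap for Fdps and overlapped for Insig1. The pools held different mice and were handled by different operators, so the mice and the handling cannot be told apart. The dissociation genes also differed between clusters, with 9 of 14 lower than in cluster 11 (background 8.56%) and 11 of 14 higher than in cluster 4 (background 8.75%), and their part in other differences was not tested.

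**Figure D5:**
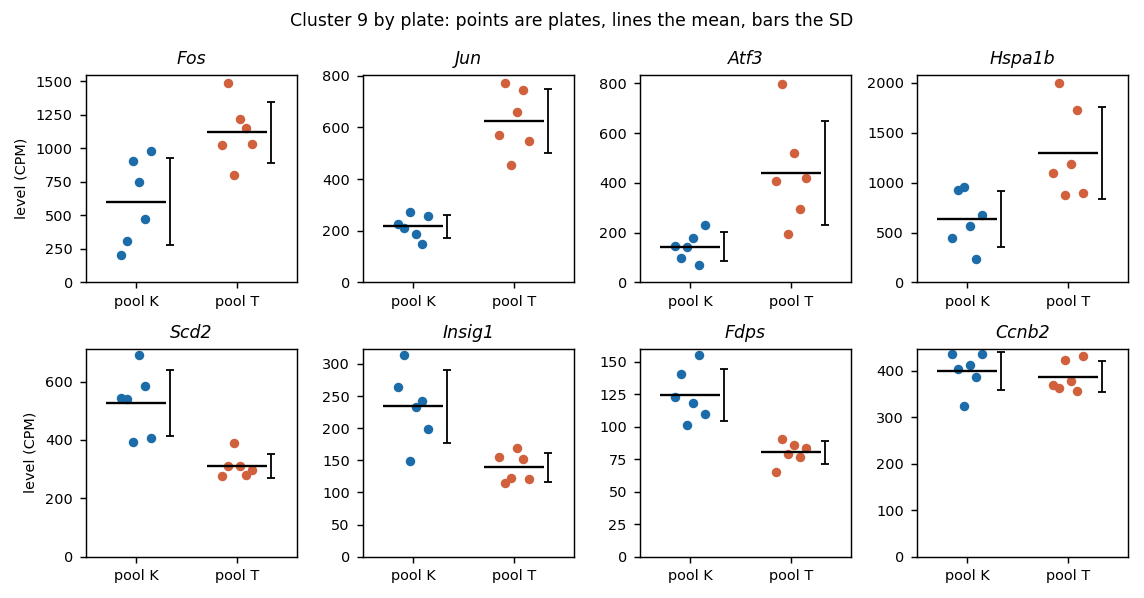
Levels in cluster 9 by plate in CPM scaled among the 12 plates, 6 plates per pool, with the mean (line) and SD (bar) of the plates. Jun, Atf3, Fos and Hspa1b are higher in pool T on average and Scd2, Insig1 and Fdps lower, while Ccnb2 was not called between the pools.

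The share of cluster 9 among annotated cells was 6.26% ± 1.08 (SD, n = 6 plates) in pool T and 4.61% ± 1.07 (n = 6) in pool K, a difference of 1.64 percentage points (two-sided exact permutation test over plates, p = 0.0216). As a share of isthmus cells it was 17.8% ± 1.38 and 15.9% ± 3.04, a difference of 1.98 points that did not pass the threshold (exact permutation p = 0.177). Plates of a pool share their mice, so these p-values measure the spread between plates and not between animals, and the mice of a pool cannot be told apart.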

How the data were processed

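Raw sequencing was converted with bcl2fastq 2.20.0.422 and aligned to GRCm39, per the labels. According to the methods, the authors processed reads with the FASTX-Toolkit, STAR and Drop-seq tools on Gencode M27. They kept wells with at least 2500 detected genes and clustered cells with Seurat. The deposited table used here holds raw UMI counts per gene and cell, and the deposited annotation holds the cluster, the phase and the 2 cell cycle scores of each cell; the annotation's mitochondrial share is a percent computed by the authors. Whether introns or strand were used in counting is not given in the sources used here. Of the first dataset of the series only the number of annotated cells was used.

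Cluster 9 was taken as annotated. UMIs were summed per cluster and pool for the 14 epithelial clusters (28 sums, 14 residual degrees of freedom), and edgeR 4.0.16 in R 4.3.3 was run with TMM scaling, filterByExpr and glmQLFTest, with Benjamini-Hochberg adjustment and a threshold of 0.05; this left 12922 genes. Pools were compared on 12 plate sums of cluster 9 (7680 genes). The fits were tested on simulated data. Genes named against a cluster or the isthmus mean were called genes with the same direction in both pools. They had a minimum of 10 UMIs on the higher side in each pool. The largest changes were taken, 10 each way against the isthmus mean and cluster 4 and 4 each way otherwise. Between the pools, up to 4 each way were taken, with at least 10 UMIs in the higher pool. Among genes called in all 5 comparisons, 10 each way were taken by their smallest change, without these conditions. Other genes named were mostly members of fixed lists of cell types and functions or of the genes called in all 5 comparisons. Genes called against several clusters share the sums of cluster 9. A fold against a group at 0 UMIs was set against 3 UMIs per pool. Thinning left out the 52 cells of the dataset under 10000 UMIs, none of them of cluster 9. The members and the lists were chosen with earlier results of these data known. The pools pair the samples, since the same mice gave all clusters of a pool; deviations of cluster 9 and the 5 other clusters in the same pool correlated at 0.06 to 0.191. Alternatives were DESeq2 1.42.0, other scaling, no filter, pool as a block, plate sums, G2M cells only, thinning, and leaving out high-count cells, a pool or a plate. Matplotlib 3.10.9 drew the figures.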

Additional observations from a re-analysis of the deposited data

Results flagged for a closer look

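Among 34 groups of 6 plates examined (17 values of cluster 9 in each pool), 4 held a plate far from the other 5. The gap to its nearest neighbour, as a part of the range, was above Dixon's critical value. That value is set for about 1 of 20 independent groups. The 17 values were picked, and Atp4a and Lpl in pool K share a well, so the count of 4 cannot be set against that rate. Without TMM scaling, Atp4a stood at 2190 UMIs per 1000000 (CPM) on plate 3 of pool K, and Lpl at 315 CPM on the same plate, which holds the well with 1838 Atp4a UMIs described above. Atp4a was also high on plate 3 of pool T, at 194 CPM, against 56.6 to 76.3 on the other 5 plates of that pool. Muc6, the neck cell mucin, stood at 333 CPM on plate 4 of pool K, against 64.7 to 141 CPM on the other plates, among 12 cells of cluster 9 there.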

How the results depend on the processing

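Among single-gene results that were called as reported, Lpl and Prc1 changed direction. Direction was not compared for results that were not called. Lpl against clusters 11, 3, 4, 5 and 6 was −0.27, −0.41, −0.25, −0.60 and −0.10 on the log2 scale without cells above 2 times the median UMIs and −0.37, −0.48, −0.37, −0.71 and −0.18 without the well with most Atp4a UMIs (an alternative chosen after seeing the data), and Prc1 against cluster 3 was −0.61 without cells above 2 times the median UMIs. Leaving out pool K of cluster 9 gave Lpl values of −0.24, −0.35, −0.24, −0.58 and −0.06, and leaving out pool T 2.96, 2.82, 2.99, 2.62 and 3.12. Thinning every cell to 10000 UMIs lowered the counts of called genes to 1189 (isthmus mean), 1903 (cluster 3), 626 (cluster 5), 2243 (cluster 6), 1018 (cluster 11) and 1224 (cluster 4), with 10909 genes tested. Leaving out a pool of cluster 9, which leaves 1 sum there that is assumed to vary like the other clusters, gave 1170 to 1309 (isthmus mean), 2368 to 2543 (cluster 3), 799 to 828 (cluster 5), 2812 to 2839 (cluster 6), 1314 to 1610 (cluster 11) and 1213 to 1580 (cluster 4). Plate sums, with 9940 genes tested and plates of the same mice as replicates, gave 2635 genes against cluster 5. For pool T against pool K, no filter gave 163 genes and leaving out 1 plate 32 to 52, and the difference in the share of cells was 1.28 to 1.92 points without 1 plate and 1.98 with isthmus cells as the denominator. With pool as a replicate block the counts were 3343, 4313, 1909, 4709, 3018 and 2819 in the order above. No single-gene result called without the block changed direction. Genes higher and lower in all 5 comparisons, 19 and 53 as reported, numbered 39 and 76 with that block, 86 and 122 on plate sums, 44 and 86 without cells above 2 times the median UMIs, 6 and 16 after thinning, 31 and 50 without a filter, 13 and 27 with DESeq2, and 4 to 33 and 21 when a pool of cluster 9 was left out. Over 471 single-gene results, 5195 of 5568 values kept their side of the threshold without a counted reversal, 232 lost the call, 125 gained it and 16 reversed. For 15 more, DESeq2 gave no adjusted p. A reversal was counted only where the result was called as reported. The median log2 difference of all genes against cluster 4 was −0.04 with TMM and 0.14 without scaling. The median percent of the cluster 5 level over mitotic genes was 27.5 to 35.8. Depth limited genes at a few UMIs, for which a fold was given as a bound.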

Other observations

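Proteasome subunit genes, which encode the main protein-degrading complex, were slightly higher in cluster 9 than in most isthmus clusters. Of 34, 23 were called higher than the isthmus mean and none lower (background 11.4%), with a median log2 difference of 0.24. Against cluster 5, 1 was called higher (background 3.44%, median 0.13), and against pre-pit cluster 4, 3 were (background 8.75%, median 0.03). Of 13 tested genes of actin nucleation and the apical membrane, 7 were higher than the isthmus mean and none lower (backgrounds 11.4% and 10.1%, median 0.21), 1 was higher than in cluster 5 (background 3.44%), and 2 were lower and none higher than in cluster 4 (backgrounds 9.19% and 8.75%). Those above the isthmus mean included the Arp2/3 complex members Actr2 (0.29), Actr3 (0.44) and Arpc2 (0.38). Ezr, which encodes ezrin, was at 785.9 and 779.4 CPM, above cluster 5 (665.7 and 688.0) and below pre-pit cluster 4 (1034 and 1170), where it was called lower (−0.49). Of 20 tested genes of MYC activity and ribosome biogenesis, 8 were lower than the isthmus mean (background 10.1%) and none higher (median −0.24). By single cluster, 13 were lower than in cluster 3 and 10 than in cluster 6 (backgrounds 14.0% and 17.1%). Only 3 were lower than in cluster 5 (background 7.7%). Against cluster 11, 1 was higher and 3 lower (backgrounds 10.5% and 8.56%), and against cluster 4, 1 and 1 (8.75% and 9.19%).

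Of 16 tested genes that report or restrain ERK signalling, 7 were lower than in cluster 11 (background 8.56%), with a median of −0.75, and 5 were higher than in cluster 4 (background 8.75%), with a median of 0.82. Dusp6, an ERK phosphatase, was among both groups (−0.73 and 1.11), as was Egr1 (−1.69 and 1.51), which is also an immediate early gene of the dissociation list. Against cluster 5, 2 of the 16 were lower (background 7.7%), the transcription factor gene Etv5 (−0.86) and the EGF receptor inhibitor Lrig1 (−0.52). Of 18 tested genes of TNF receptors and NF-kB, 9 were lower than in cluster 11 (background 8.56%), and 1 was higher than in cluster 4 (background 8.75%, median 0.05). Of 11 genes reported to mark gastric stem cells, 1 was higher than the isthmus mean and none lower (backgrounds 11.4% and 10.1%). Against cluster 6, 3 were higher and 4 lower (15.0% and 17.1%). Against cluster 11, 1 was higher and 3 lower (10.5% and 8.56%), and against cluster 4, 3 and 2 (8.75% and 9.19%). In the list of 33 lineage transcription factors, which also holds the mitotic gene Cenpa, 3 were higher and 4 lower than the isthmus mean (backgrounds 11.4% and 10.1%). Tcp11l2, named by the rule against cluster 6, was at 30.03 and 27.7 CPM in cluster 9, above cluster 6 (2.81 and 3.33) and below cluster 4 (53.3 and 40.9).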
